A study of Neurospora crassa with 2 samples.

Results

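The 150 most abundant transcripts of wild-type Neurospora crassa hyphae were described here, chosen by their RPKM in the wild-type library out of 9454 genes. RPKM is the read count of a gene divided by the length of its gene model and by the size of the library. N. crassa is a filamentous ascomycete fungus. The study sequenced polyadenylated RNA of a upf1 knockout strain and of a wild-type strain, both untreated, to compare their transcripts. Hyphae of both strains spent 2 days in medium with 2% glucose under constant light, after 2 weeks on minimal slants. RNA of 3 flasks grown separately was pooled into 1 library for each strain, so no difference between the strains has a replicate check and no p-value is given. The labels do not give the mating type or how the knockout was built.

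Hyphae that grow on glucose spend much of their messenger RNA on the machinery of growth, chiefly ribosomal proteins, translation factors, histones and the enzymes of glycolysis. In Neurospora, light and the circadian clock also drive a set of abundant transcripts, among them eas, which encodes the hydrophobin that coats aerial hyphae and conidia, and vvd, which encodes a blue-light photoreceptor that damps the light response. UPF1 is an RNA helicase required for nonsense-mediated decay, which removes messages whose reading frame ends too early. The genes were selected on wild-type RPKM, so these values, and the differences between strains that rest on them, are given as a description.

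The table held 56306422 reads of the knockout library and 28189643 reads of the wild-type library. The targeted gene, upf1, has the symbol prd-6 and had 2.78 RPKM in the knockout library, against 22.6 RPKM in the wild-type library. Of the genes listed as hyphal markers, hex-1 (the main protein of the Woronin body, which plugs damaged septa), act (actin) and pma-1 (the plasma membrane proton pump) were among the 150. How far act and pma-1 are particular to hyphae was not tested, so the hyphal sums below do not measure hyphal content. The markers of light and of conidia that were among the 150 are given with their group below. The 11 hyphal markers found in the table summed to 2440 RPKM in the knockout library and 4268 RPKM in the wild-type library. Without hex-1 the sums were 1838 and 2360 RPKM. Only hex-1 was past 2-fold on the scale defined below, which adds 1 RPKM to each level. With 8.15 RPKM in the knockout library and 3.58 RPKM in the wild-type library, chs-6 stayed just short of 2-fold higher on it. None of the 9 mating and sexual development markers found was among the 150. They summed to 154 RPKM in the knockout library and 91.6 RPKM in the wild-type library, or 79.9 and 75.5 RPKM without asd-1, and 3 of them (matA-1, matA-2 and matA-3) had no read in either library.

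The 150 genes held 18110292 reads in the knockout library and 10347774 reads in the wild-type library. This was 32.2% of the knockout reads in the table (95% exact Clopper-Pearson interval 32.15 to 32.18, counting error only) and 36.7% of the wild-type reads (36.69 to 36.73). Their lowest, median and highest levels were 23.4, 913 and 39025 RPKM in the knockout library, against 639, 1211 and 17199 RPKM in the wild-type library. The median gene of the whole table had 17.9 RPKM in the knockout library and 15.2 RPKM in the wild-type library. The knockout reads were concentrated in fewer genes at the very top, where 2 genes held 10 percent of all reads in the table, against 6 genes in the wild-type library. Further down the order was the other way: 50 percent of the reads lay in 470 genes of the knockout library, against 341 genes of the wild-type library.

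**Figure D1:**
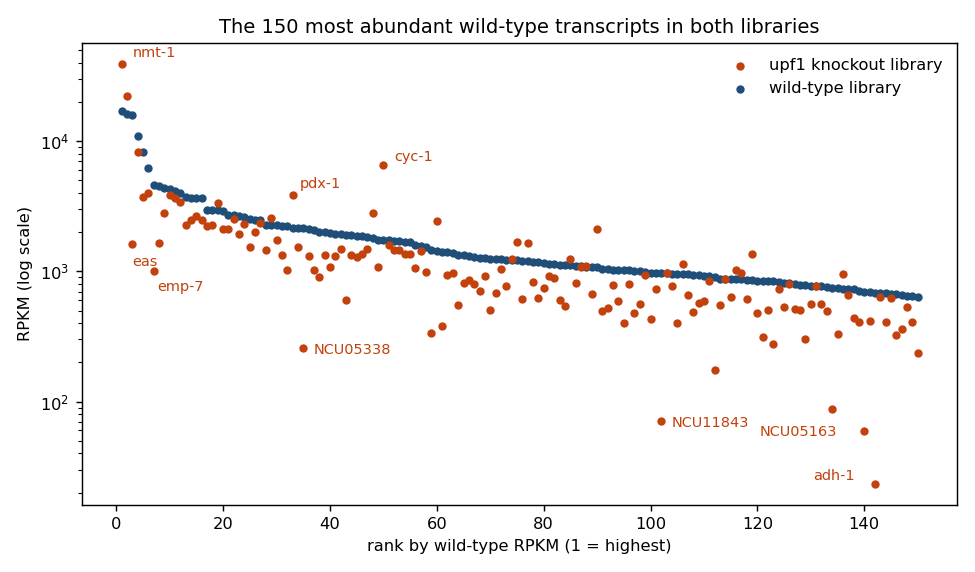
RPKM (log scale) of the 150 genes in the knockout library (orange) and in the wild-type library (blue), placed by their rank in the wild-type library. The blue points set the ranks and descend by construction. Most orange points lie near or below them, with adh-1 lowest at 23.4 RPKM, while nmt-1 and cyc-1 lie above their wild-type levels.

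Differences between the strains were measured as log2((knockout RPKM + 1)/(wild-type RPKM + 1)), and a gene was counted from 2-fold on this scale. Among the 150 genes, 2 were at least 2-fold higher in knockout hyphae, 30 were at least 2-fold lower and 118 lay within 2-fold. With gene length bins centred, 1 was higher and 63 were lower, and with TMM scaling 1 was higher and 41 were lower. Over the 7367 genes that reached 5 RPKM in either library, 16.5% were at least 2-fold higher and 5.52% at least 2-fold lower. With TMM scaling these shares were 13.1% and 7.82%, and with gene length bins centred, that is with the median ratio of genes of like length subtracted, they were 11.5% and 8.20%. The median log2 ratio was -0.56 over the 150 genes, with quartiles of -0.85 and -0.23, and 0.15 over the 7367 genes, where TMM scaling gave a median of -0.02. The log2 ratio was below 0 for 129 of the 150 genes and above 0 for 21. Because a high wild-type value was the condition for entry, nothing is read from the members' shares against those of all genes. The counting interval of the ratio left out 1 for 145 of the 150 genes, so depth is not the main limit, and the variation between cultures was not measured.

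Genes of vitamin synthesis took the first and second place in both libraries. Transcript nmt-1 (supercontig 2, 4177719 to 4179566), whose product makes the pyrimidine precursor of thiamine, had 39025 RPKM in the knockout library, against 17199 RPKM in the wild-type library, a 2.27-fold higher level (95% interval 2.26 to 2.27). On the log2 scale its ratio was 1.18, and it was short of 2-fold with TMM scaling (0.9996) and with gene length bins centred (0.99). Transcript NCU06110 (supercontig 7, 2488602 to 2490589), annotated as the thiazole biosynthetic enzyme that makes the other precursor, had 22470 and 16134 RPKM, a 1.39-fold higher level in the knockout library. Together these genes held 11.0% of the table's reads in knockout hyphae and 5.93% in wild-type hyphae. Transcript pdx-1, for vitamin B6 synthesis, had 3849 RPKM in the knockout library and 2161 RPKM in the wild-type library, and ranked 7th and 33rd. The fourth member of the group, NCU05165, annotated as pyridoxamine phosphate oxidase, went the other way, with 314 RPKM in the knockout library and 849 RPKM in the wild-type library, a 2.70-fold lower level. Its gene model overlaps another, so its reads are uncertain. Over all 28 genes of vitamin synthesis in the table, 27 reached 5 RPKM in either library, and of these 2 were at least 2-fold higher and 2 at least 2-fold lower.

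Because a share of reads in one gene lowers the share of all others, the remaining 148 genes were also set against the reads left without nmt-1 and NCU06110. They held 23.8% of those reads in knockout hyphae and 32.7% in wild-type hyphae. With both genes taken out of the library totals, 3 of the 150 were at least 2-fold higher and 26 at least 2-fold lower, with a median log2 ratio of -0.48.

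Ribosomal proteins were the largest group, with 71 of the 150 genes. They held 9.0% of the table's reads in knockout hyphae and 12.6% in wild-type hyphae, or 10.1% and 13.4% of the reads left without the thiamine genes. Their levels ran from 331 to 3980 RPKM around a median of 932 RPKM in the knockout library, against 713 to 6259 RPKM around a median of 1301 RPKM in the wild-type library. None was at least 2-fold higher and 7 were at least 2-fold lower, and 69 of 71 had a log2 ratio below 0. The count of lower genes was 13 with TMM scaling, 29 with gene length bins centred and 11 with the median gene set to 0. The median log2 ratio was -0.57, with quartiles of -0.71 and -0.33, and it lay between -0.95 and -0.49 under the other scalings and pseudocounts tried. Of the 71, 60 were also among the first 150 of the knockout library.

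The large-subunit proteins numbered 42, with a median log2 ratio of -0.57, and the small-subunit proteins numbered 25, with a median of -0.47. The acidic stalk protein P2 (NCU00979, supercontig 1, 6513585 to 6514638) was the most abundant, with 3980 RPKM in the knockout library and 6259 RPKM in the wild-type library. It was followed in the wild type by L39 (NCU08990), with 3879 RPKM in the knockout library and 4288 RPKM in the wild-type library. Next came the fusion of ubiquitin with S27a (ubi::crp-6), with 3654 and 4114 RPKM, whose gene model overlaps another. The small-subunit protein S26 (crp-5) had 3401 RPKM in the knockout library and 4035 RPKM in the wild-type library. All 4 were less than 2-fold apart between the libraries and stood within the first 10 of the knockout library.

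Another 9 ribosomal proteins were among the 25 most abundant wild-type transcripts, all with lower values in the knockout library and all less than 2-fold apart. In the small subunit, genes NCU06432 and NCU00971, both annotated as S12, had 2270 and 2492 RPKM in the knockout library, against 3744 and 3687 RPKM in the wild-type library. S28 (NCU01552) had 2273 RPKM in the knockout library and 2975 RPKM in the wild-type library, S18 (NCU00475) had 2105 and 2737 RPKM, and S25 (NCU09476) had 2304 and 2621 RPKM. In the large subunit, L38 (NCU03635) had 2676 RPKM in the knockout library and 3683 RPKM in the wild-type library, and L44 (NCU00706) had 2505 and 3659 RPKM. L19 (NCU05804) had 2127 RPKM in the knockout library and 2925 RPKM in the wild-type library, and L22 (NCU06661) had 2521 and 2722 RPKM. The log2 ratios of these 9 ran from -0.72 for NCU06432 to -0.11 for NCU06661.

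The 7 ribosomal proteins at least 2-fold lower were crp-2 (S14), crp-10, rap-1 (a ribosome-associated protein), NCU00294 (L10a), NCU06047 (S2), po (P0 of the acidic stalk) and NCU07182 (S24). These were picked out after their values were seen. The lowest ratio was that of crp-2, with 556 RPKM in the knockout library and 1340 RPKM in the wild-type library. The other end was held by S22 (NCU06431), with 1692 RPKM in the knockout library and 1221 RPKM in the wild-type library, a log2 ratio of 0.47. Only NCU08344, annotated as a 60S protein without a number, also had a ratio above 0, at 0.03, with 1252 and 1224 RPKM. S22 ranked 32nd in the knockout order and 75th in the wild-type order, but with gene length bins centred its ratio was -0.09.

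The product names gave 92 genes the name of a cytosolic ribosomal protein, and 21 of these were not among the 150. They lay far lower in the wild-type library, between 11.4 and 554.7 RPKM, and 16 of the 21 had a log2 ratio above 0, with a median of 0.62. Several repeat a protein that a member already has, such as L3, L19 or S9, and the names alone do not separate cytosolic proteins from mitochondrial ones. The most abundant of the 21 in the wild-type library were crp-15 (S7), NCU03757 (L4-A), NCU07826 (S19) and NCU06048 (S30). Their log2 ratios were -0.67, -0.95, -0.08 and -0.09. The 16 genes above 0 reached at most 189 RPKM in the wild-type library. The negative ratios of the abundant ribosomal proteins were therefore not shared by every gene of that name.

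Translation factors, which load and move the ribosome, gave 6 members with a median log2 ratio of -0.62. They held 1.33% of reads in knockout hyphae and 2.41% in wild-type hyphae. The elongation factor that brings aminoacyl-tRNA, tef-1 (supercontig 1, 1711641 to 1713696), was the fifth most abundant wild-type transcript. It had 3705 RPKM in the knockout library and 8223 RPKM in the wild-type library, 2.22-fold lower (95% interval 2.21 to 2.23). It was the only member of the group past 2-fold, and 2 were with TMM scaling or gene length bins centred. Factor eif5A had 1334 RPKM in the knockout library and 2229 RPKM in the wild-type library, and cot-3, the elongation factor that moves the ribosome along the message, had 486 and 941 RPKM. The initiation helicase eIF4A (NCU07420) differed least, with 804 RPKM in the knockout library and 812 RPKM in the wild-type library, and its counting interval included a ratio of 1. Of all 28 translation factors that reached 5 RPKM in either library, 2 were at least 2-fold higher and 1 at least 2-fold lower, with a median log2 ratio of -0.25.

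Core histones gave 5 of the 150 genes. hH2A had 1929 RPKM in the knockout library and 2684 RPKM in the wild-type library, hH3 had 1530 and 2530 RPKM, and hH2B had 1338 and 1894 RPKM. Of the genes for H4, hH4-2 had 815 RPKM in the knockout library and 1110 RPKM in the wild-type library, and hH4-1 had 867 and 881 RPKM. None of the 5 was past 2-fold, and their median log2 ratio was -0.48. With gene length bins centred, hH2A, hH3 and hH2B were past 2-fold lower and the median was -1.04. The H4 genes encode near-identical proteins, and how reads that match both were counted is unknown here.

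**Figure D2:**
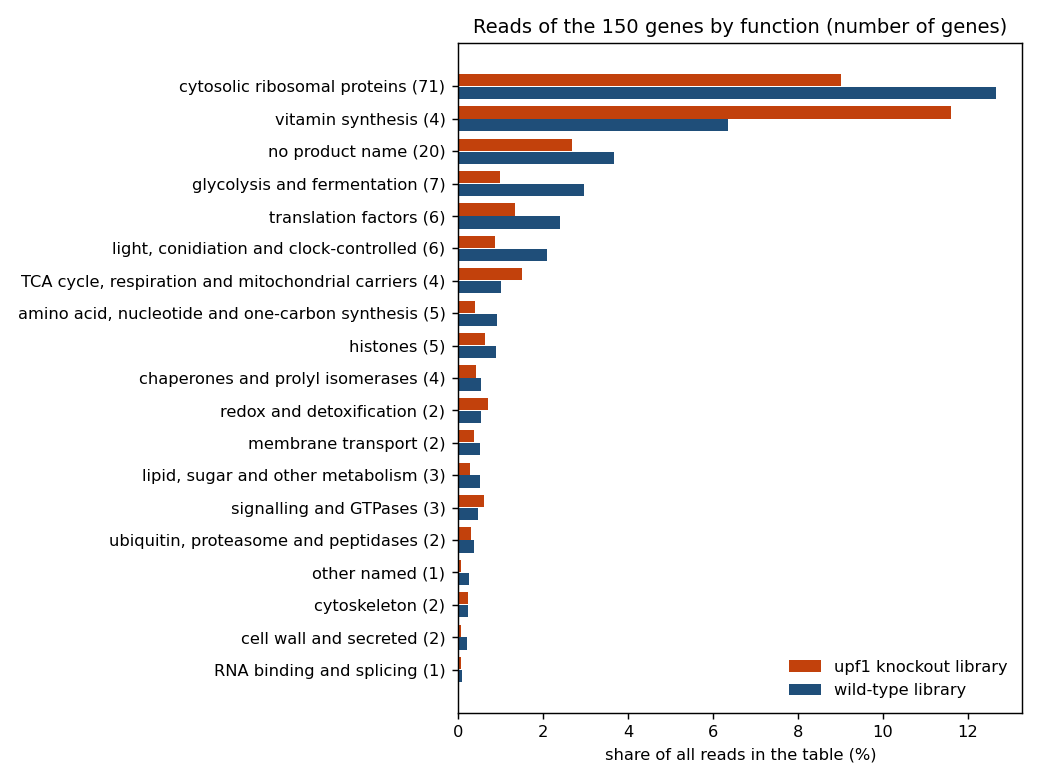
Share of all reads in the table (percent, linear scale from 0) held by the members of each functional group, in the knockout library (orange) and the wild-type library (blue), with the number of members in parentheses. Ribosomal proteins held 9.0% and 12.6%, vitamin synthesis 11.6% and 6.34%, and glycolysis and fermentation 0.987% and 2.97%.

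Glycolysis and fermentation had the lowest share of reads relative to the wild type among groups of 5 or more genes. The 7 members held 0.987% of reads in knockout hyphae and 2.97% in wild-type hyphae. All 7 had a log2 ratio below 0, and 6 were at least 2-fold lower, with a median of -1.46. Enolase (emp-7, supercontig 1, 5945430 to 5947804) had 1001 RPKM in the knockout library and 4610 RPKM in the wild-type library, a 4.60-fold lower level (95% interval 4.57 to 4.63). The gene gpd-1, for glyceraldehyde 3-phosphate dehydrogenase (supercontig 2, 3180356 to 3182245), is also known as the clock-controlled gene ccg-7 and had 1644 RPKM in the knockout library and 4530 RPKM in the wild-type library. Both were among the 10 most abundant wild-type transcripts, and in the knockout library they ranked 69th and 34th.

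The aldolase gene fba had 910 RPKM in the knockout library and 2014 RPKM in the wild-type library. The genes pgk (phosphoglycerate kinase) and ace-8 (pyruvate kinase) had 276 and 302 RPKM in the knockout library, against 839 and 784 RPKM in the wild-type library, and both gene models overlap another. On the branch to ethanol both genes were lower in the knockout library, by very different amounts. Pyruvate decarboxylase (cfp), which makes acetaldehyde, was 1.84-fold lower, with 1073 RPKM in the knockout library and 1973 RPKM in the wild-type library. Alcohol dehydrogenase (adh-1, supercontig 2, 2540264 to 2541938), which reduces acetaldehyde to ethanol, had 23.4 RPKM in the knockout library and 688 RPKM in the wild-type library. This was the lowest ratio of all 150 genes, 29.4-fold (95% interval 28.5 to 30.4), and placed it 4042nd in the knockout library. Its gene model overlaps another, so part of the reads may belong to the neighbour. The length behind its RPKM, 2733 bases, is also longer than the 1675 bases between its coordinates, so its level and rank against other genes are uncertain, while the ratio between the libraries uses 1 length. Of all 30 genes of glycolysis and fermentation that reached 5 RPKM in either library, 5 were at least 2-fold higher and 8 at least 2-fold lower, so the group as a whole did not share the direction of its abundant members. Triosephosphate isomerase (NCU07550), which is not among the 150 but is among the first 150 of the knockout library, had 628 RPKM in the knockout library and 569 RPKM in the wild-type library. The same holds for mig-6, annotated as a zinc-containing alcohol dehydrogenase and grouped with other metabolism. It had 642 RPKM in the knockout library and 168 RPKM in the wild-type library.

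Respiration and mitochondrial carriers gave 4 genes, and their share was larger in the knockout library, at 1.51%, than in the wild-type library, at 1.01%. Cytochrome c (cyc-1, supercontig 2, 2356068 to 2357579), the soluble electron carrier, had 6576 RPKM in the knockout library and 1740 RPKM in the wild-type library, 3.78-fold higher (95% interval 3.74 to 3.82). It stood 4th in the knockout order and 50th in the wild-type order. The ADP/ATP carrier gene (aac) had 3382 RPKM in the knockout library and 2951 RPKM in the wild-type library, a log2 ratio of 0.20 that was -0.12 with gene length bins centred. The ATP synthase genes lay just below 0 on the log2 scale: oli, for the nuclear-encoded ring subunit, had 2357 and 2480 RPKM, and atp-2, for the beta subunit, had 729 and 829 RPKM. The median log2 ratio of the 4 was 0.06, and it was below 0 when the ratios were centred on the median gene (-0.09), scaled by TMM (-0.12), centred by gene length (-0.23) or computed with totals that leave out the 150 genes (-0.04). Of all 116 such genes that reached 5 RPKM in either library, 16 were at least 2-fold higher and none was at least 2-fold lower. Genes of the mitochondrial genome were absent from the 150: the best of the 28 in the table ranked 2812th in the wild type, in libraries made from polyadenylated RNA.

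Amino acid and nucleotide synthesis gave 5 genes, all with log2 ratios below 0. Methionine synthase (met-8) had 505 RPKM in the knockout library and 1254 RPKM in the wild-type library. The glutamate dehydrogenase gene am had 402 RPKM in the knockout library and 1021 RPKM in the wild-type library, and ilv-2, of branched-chain amino acid synthesis, had 235 and 639 RPKM. These 3 were at least 2-fold lower. The nucleoside diphosphate kinase gene ndk-1 (727 RPKM in the knockout library and 973 RPKM in the wild-type library) and the glutamine synthetase gene gln-1 (363 and 656 RPKM) lay within 2-fold. Over all 94 genes of the group that reached 5 RPKM in either library, 5 were at least 2-fold higher and 19 at least 2-fold lower. The transcription factor that induces many such genes, cpc-1, was among the 150 with the opposite sign, at 2462 RPKM in the knockout library and 1427 RPKM in the wild-type library, 1.73-fold higher. Gene cpc-2, for a ribosome-bound scaffold protein of the same control, had 563 RPKM in the knockout library and 1009 RPKM in the wild-type library.

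Light, conidiation and clock-controlled genes gave 6 members. They held 0.871% of reads in knockout hyphae and 2.09% in wild-type hyphae, and eas alone held 0.130% and 1.27%. The hydrophobin transcript eas (supercontig 2, 3571946 to 3572797) had 1619 RPKM in the knockout library and 15983 RPKM in the wild-type library, where it was the third most abundant. It was 9.87-fold lower (95% interval 9.80 to 9.95) and stood 35th in the knockout order. The other members differed less: ccg-16 had 1535 RPKM in the knockout library and 2152 RPKM in the wild-type library, ccg-6 had 1037 and 1244 RPKM, ccg-1 had 619 and 1177 RPKM, and ccg-15 had 595 and 929 RPKM. The photoreceptor vvd was the only member of the group with a log2 ratio above 0 (0.68), with 1366 RPKM in the knockout library and 852 RPKM in the wild-type library. With gene length bins centred, 3 of the 6 were at least 2-fold lower. The whole group had the other sign: of its 29 genes that reached 5 RPKM in either library, 11 were at least 2-fold higher and 3 at least 2-fold lower, with a median log2 ratio of 0.62.

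Markers of conidia differed between the libraries in both directions. The 11 genes of that list summed to 4861 RPKM in the knockout library and 22376 RPKM in the wild-type library, or 3242 and 6393 RPKM without eas, while their median was 59.998 RPKM in the knockout library and 27.4 RPKM in the wild-type library. In the sums without eas, gpd-1, which is counted under glycolysis above, had 1644 RPKM in the knockout library and 4530 RPKM in the wild-type library. Of the 11, 4 were at least 2-fold higher (con-6, con-8, con-10 and con-13). Another 4 were at least 2-fold lower: eas, fl, ccg-14 and gpd-1. The last is a glycolytic gene that is in the list as ccg-7, so its level is not particular to conidia. Among the 150 were 3 of the list (eas, ccg-1 and gpd-1). No marker of the list was at 0 reads in either library. The conidiation gene con-6 had 642 RPKM in the knockout library and 27.4 RPKM in the wild-type library. The light markers summed to 4577 RPKM in the knockout library and 2474 RPKM in the wild-type library, with 5 of 10 at least 2-fold higher and none at least 2-fold lower. The part of conidia or aerial hyphae in these levels was not tested, and in bulk RNA fewer cells of a type and less RNA per cell cannot be told apart.

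Stress and folding genes were few. The copper-binding metallothionein cmt had 2215 RPKM in the knockout library and 2978 RPKM in the wild-type library. Flavohemoglobin (NCU10051), an enzyme that removes nitric oxide, had 2812 RPKM in the knockout library and 1806 RPKM in the wild-type library, 1.56-fold higher. The prolyl isomerases csr-1 (a cyclophilin) and fkr-2 had 1255 and 1019 RPKM in the knockout library, against 1116 and 877 RPKM in the wild-type library. Their log2 ratios were 0.17 and 0.22, and -0.39 and -0.12 with gene length bins centred. The chaperones hsp70-1 and hsp70-2 had 415 and 326 RPKM in the knockout library, against 694 and 665 RPKM in the wild-type library, and hsp70-2 was past 2-fold at a log2 ratio of -1.03, though not with the thiamine genes out of the library totals. Polyubiquitin (ubi) had 1649 RPKM in the knockout library and 1193 RPKM in the wild-type library. In all, 59 genes of chaperones and prolyl isomerases reached 5 RPKM in either library. Of these, 14 were at least 2-fold higher and 2 at least 2-fold lower, with a median log2 ratio of 0.32. For redox and detoxification 10 of 45 such genes were at least 2-fold higher and 3 at least 2-fold lower, with a median of 0.42.

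The cell surface and the cytoskeleton were represented by a few genes. The proton pump pma-1 had 658 RPKM in the knockout library and 948 RPKM in the wild-type library, and the small membrane protein NCU06660, annotated as plasma membrane proteolipid 3, had 1298 and 1886 RPKM. The cell wall proteins acw-9 and ncw-3 had 174 and 410 RPKM in the knockout library, against 910 and 678 RPKM in the wild-type library, so that acw-9 was 5.23-fold lower. The Woronin body gene hex-1 was 3.17-fold lower, with 602 RPKM in the knockout library and 1908 RPKM in the wild-type library, and its gene model overlaps another. Tropomyosin (tpm) was nearly equal in both libraries, with 1102 RPKM in the knockout library and 1087 RPKM in the wild-type library. Actin (act) had 654 RPKM in the knockout library and 731 RPKM in the wild-type library, and calmodulin (cmd) had 621 and 674 RPKM. These 3 genes lay within 1.5-fold of their wild-type level, while hex-1 and acw-9 did not. Of 130 cell wall and secreted genes that reached 5 RPKM in either library, 30 were at least 2-fold higher and 11 at least 2-fold lower.

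Lipid and carbon metabolism gave 3 further genes. The acyl-CoA desaturase gene NCU05259, which introduces double bonds into fatty acids, had 403 RPKM in the knockout library and 951 RPKM in the wild-type library, past 2-fold. The pentose phosphate enzyme ppm-2 had 503 RPKM in the knockout library and 788 RPKM in the wild-type library. ATP citrate lyase (NCU06783), which makes cytosolic acetyl-CoA, had 407 RPKM in the knockout library and 643 RPKM in the wild-type library. None of the 3 was among the first 150 of the knockout library. In the whole group of lipid, sugar and other metabolism, 794 genes reached 5 RPKM in either library. Of these, 135 were at least 2-fold higher and 48 at least 2-fold lower, with a median log2 ratio of 0.15.

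**Figure D3:**
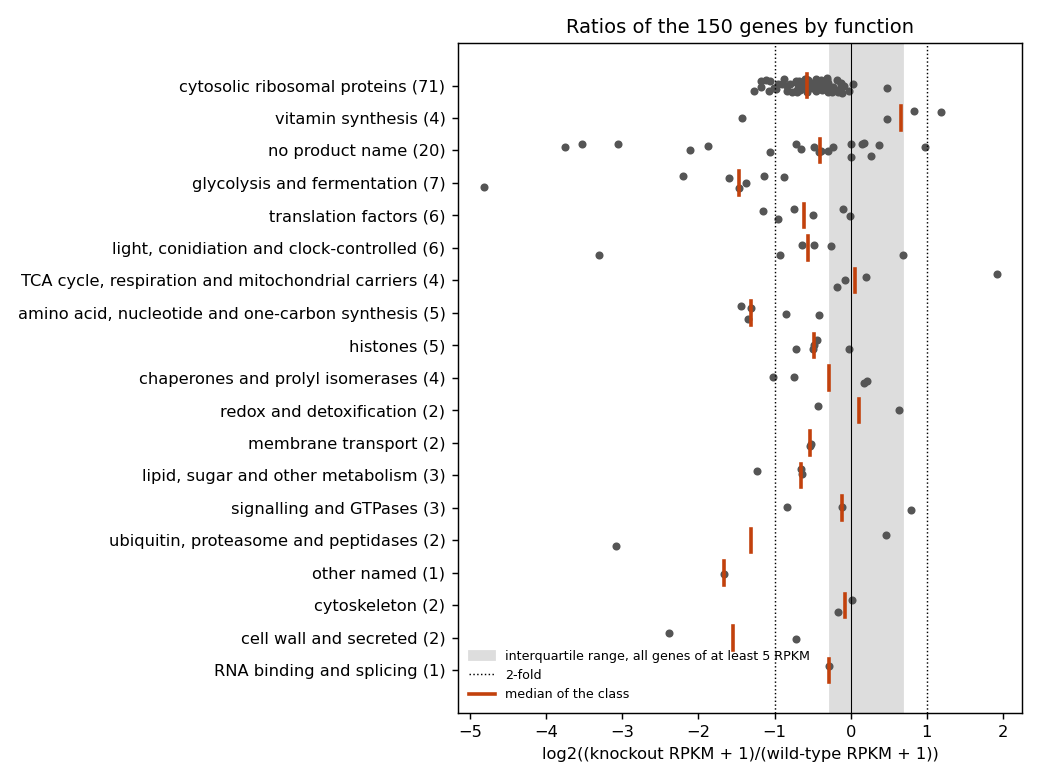
log2((knockout RPKM + 1)/(wild-type RPKM + 1)) of each of the 150 genes (grey points, spread vertically for legibility) by functional group, with the median of the group (orange line), 2-fold marks (dotted) and the interquartile range of all genes that reached 5 RPKM in either library (grey band). The ribosomal points centre on -0.57, and the points of glycolysis and fermentation, with a median of -1.46, reach furthest left, to adh-1.

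Transcripts with no known product were also among the most abundant. The product names in the deposited table called 24 of the 150 genes hypothetical (16%), against 44.8% of the 7367 genes. Of the 24, 4 have a symbol that placed them in a group above. The remaining 20 held 2.67% of reads in knockout hyphae and 3.66% in wild-type hyphae, with a median log2 ratio of -0.40. The most abundant was NCU11815 (supercontig 3, 1584834 to 1585858), with 8263 RPKM in the knockout library and 11022 RPKM in the wild-type library, which made it 3rd and 4th. NCU08960 (supercontig 5, 5824890 to 5826141) had 2807 RPKM in the knockout library and 4406 RPKM in the wild-type library. NCU09089 had 2560 RPKM in the knockout library and 2262 RPKM in the wild-type library, but its gene model length differed between the libraries, and the ratio of its reads alone was 1.01.

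Of these 20 genes 6 were at least 2-fold lower and none was at least 2-fold higher. The whole group had the other sign: 3283 genes with no product name reached 5 RPKM in either library. Of those, 673 were at least 2-fold higher and 195 at least 2-fold lower, with a median log2 ratio of 0.25. NCU11843 (supercontig 3, 3225128 to 3225916) had 70.7 RPKM in the knockout library and 966 RPKM in the wild-type library, 13.7-fold lower (95% interval 13.2 to 14.2). NCU05163, the shortest gene model of the 150 at 375 bases, had 59.9 RPKM in the knockout library and 701 RPKM in the wild-type library, 11.7-fold lower. NCU05338 had 257 RPKM in the knockout library and 2141 RPKM in the wild-type library, and ranked 383rd and 35th. NCU04314 and NCU04276 had 338 and 383 RPKM in the knockout library, against 1461 and 1403 RPKM in the wild-type library. The F-box gene NCU07257, whose family marks proteins for ubiquitination, belonged with them in size, with 88.0 RPKM in the knockout library and 752 RPKM in the wild-type library, 8.55-fold lower. At the other end, NCU03233 had 2104 RPKM in the knockout library and 1072 RPKM in the wild-type library, just short of 2-fold at a log2 ratio of 0.97. The RNA-binding group had 1 member, the zinc knuckle gene NCU08923, with 531 RPKM in the knockout library and 647 RPKM in the wild-type library.

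The order of the genes was compared next. Of the 150 genes, 114 (76.0%) were also among the 150 with the largest knockout RPKM, so 36 left the list and 36 others entered it. Of the 10 most abundant wild-type transcripts 6 were among the 10 most abundant of the knockout library, and of the first 50 it was 38. Over the 150 genes 49 stood higher in the knockout order, 99 stood lower, and 2 (nmt-1 and NCU06110) kept their rank. The median knockout rank was 81.5. Spearman's rho of the ranks was 0.80 over the 150 genes and 0.92 over the table, as a description across genes of a single pair of libraries, and genes are not independent replicates.

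Most of the 36 genes that left did not go far: 27 kept a knockout rank of 300 or better, and 26 had a wild-type rank beyond 100. Among the 36, 21 were at least 2-fold lower, against 5.52% of the 7367 genes that reached 5 RPKM in either library. Leaving the list selects for a low knockout level, so this count follows in part from how the 36 were defined. The best-ranked gene that left was NCU05338, and 4 genes (adh-1, NCU05163, NCU11843 and NCU07257) stood beyond rank 1000 in the knockout library. By group, 11 of 71 ribosomal genes left, 7 of 20 genes with no product name, 3 of 7 of glycolysis and fermentation and 4 of 5 of amino acid and nucleotide synthesis. All 6 of the light, conidiation and clock-controlled group stayed, as did all 5 histones and all 4 of respiration and carriers.

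**Figure D4:**
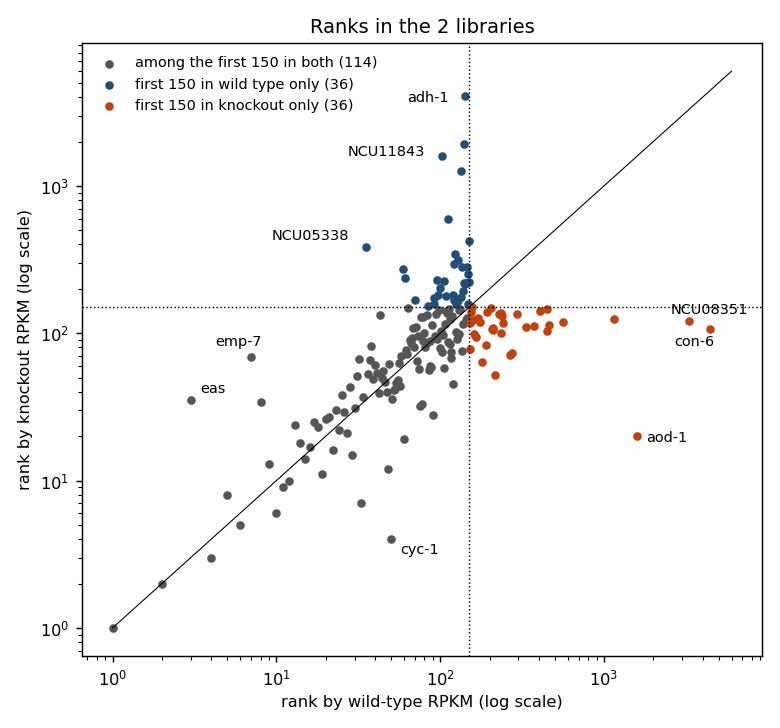
Rank in the knockout library (vertical, log scale) against rank in the wild-type library (horizontal, log scale) for the 150 genes and the 36 that are among the first 150 in the knockout library only; dotted lines mark the limit at 150 and the diagonal marks equal rank. The 114 shared genes lie in the lower left field, adh-1 is highest at rank 4042, and NCU08351 lies furthest right.

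The 36 genes that entered had another make-up. None was a ribosomal protein or a histone, 7 were of respiration and carriers, 9 had no product name and 3 belonged to the light and conidiation group. The first was aod-1, the alternative oxidase that passes electrons to oxygen without pumping protons, with 2368 RPKM in the knockout library and 62.6 RPKM in the wild-type library, rank 20 and rank 1592. Other respiratory entrants were less far apart, such as the complex I subunit nuo12.3, with 747 RPKM in the knockout library and 389 RPKM in the wild-type library. The ATP synthase alpha subunit atp-1 had 643 RPKM in the knockout library and 628 RPKM in the wild-type library, and entered with nearly the same level. Carotenoid synthesis entered through al-2 (phytoene synthase), with 943 RPKM in the knockout library and 635 RPKM in the wild-type library, and the light-induced gene bli-3 had 795 and 582 RPKM.

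Among the other first entrants, the peroxisomal membrane protein gene NCU03151 had 1329 RPKM in the knockout library and 442 RPKM in the wild-type library, and its gene model overlaps another. The urea transporter gene NCU01977 had 1049 RPKM in the knockout library and 537 RPKM in the wild-type library. Glutaredoxin (NCU01219), a small redox protein that works with glutathione, had 972 RPKM in the knockout library and 338 RPKM in the wild-type library. The unnamed genes NCU08946 and NCU08677 had 980 and 757 RPKM in the knockout library, against 348 and 598 RPKM in the wild-type library. NCU01436, annotated as questionable and overlapping another model, had 896 RPKM in the knockout library and 497 RPKM in the wild-type library. Of the 36 entrants, 14 were at least 2-fold higher, 25 had a wild-type rank of 300 or better and 12 overlap another gene model. Over the 7367 genes 16.5% were at least 2-fold higher, but entry selects for a high knockout level, so the count of 14 follows in part from that. Only 4 stood beyond rank 1000 in the wild type: aod-1, con-6, NCU08375 (a molybdopterin synthase subunit) and NCU08351 (no product name).

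How far the direction follows from the choice of list was described by ranking genes in other ways. The 150 genes with the largest knockout RPKM held 16 that were at least 2-fold higher and 9 at least 2-fold lower, with a median log2 ratio of -0.24. By the geometric mean of both libraries, 5 of the first 150 were at least 2-fold higher and 19 at least 2-fold lower, and the median was -0.45. The median of the first 150 was below 0 under all 3 rankings, but the lists share most of their genes. The knockout list holds 114 genes of the wild-type list and 130 of the geometric-mean list. The 3 medians are therefore not separate evidence on the direction. In the next block of 150 genes it was 0.22 by knockout rank, -0.32 by wild-type rank and -0.10 by the geometric mean, so there the sign depended on the library that set the rank. In wild-type ranks 451 to 600 it was -0.0034.

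**Figure D5:**
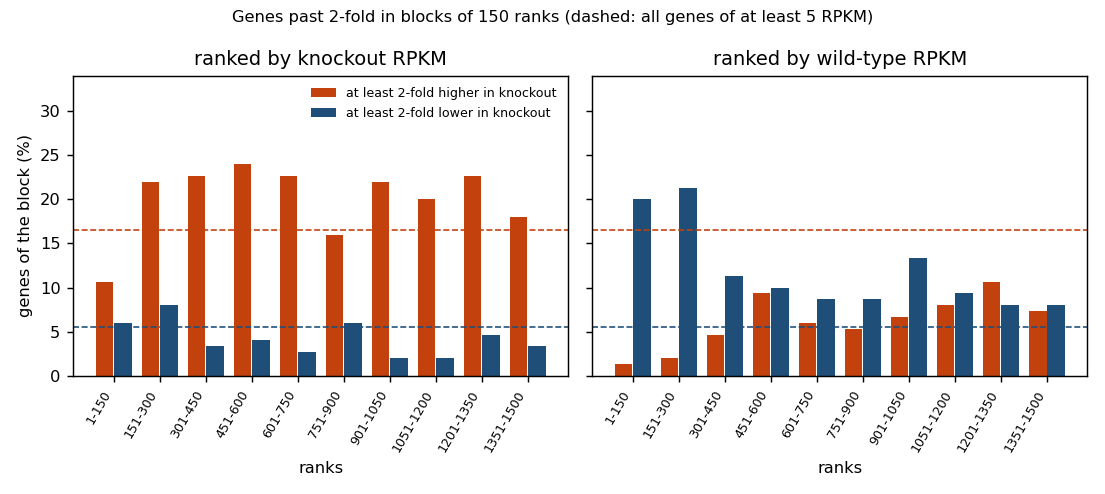
Percent of genes at least 2-fold higher (orange) and at least 2-fold lower (blue) in the knockout library, in successive blocks of 150 ranks by knockout RPKM (left) and by wild-type RPKM (right); dashed lines mark 16.5% and 5.52%, the shares over all genes that reached 5 RPKM in either library. By wild-type rank the first block has 1.33% higher and 20% lower, and by knockout rank it has 10.7% and 6.0%.

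The threshold fell in a dense stretch of levels, so the last genes differ little from the first ones left out. The last inside, NCU08923, NCU06783 and ilv-2, had 531, 407 and 235 RPKM in the knockout library, against 647, 643 and 639 RPKM in the wild-type library. The first outside, al-2, cys-18 (adenosylhomocysteinase) and atp-1, had 943, 330 and 643 RPKM in the knockout library, against 635, 629 and 628 RPKM in the wild-type library.

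The gene models of the abundant genes were short, with a median length of 1123.5 bases against 1725 bases over the 7367 genes. RPKM divides by model length, so the ranking itself favours short models. By read counts the first 150 genes held 32.5% of the knockout reads and 37.8% of the wild-type reads. A span longer than the length behind the RPKM, which marks an intron in the model, was found for 141 of 150 (94.0%) against 80.6% of the 7367. For 6 of the other members span and length were equal. For 3 (adh-1, crp-7 and NCU01966) the length was longer than the span, so introns cannot be read there and their levels per length are uncertain. Overlap with another gene model was found for 24 of 150 (16%) and 11.4% of the 7367, and the reads of these genes are uncertain. Besides the members marked so above, they include the ribosomal genes NCU06432, NCU03635, NCU01552, NCU00475, NCU08344, NCU07829, NCU01966 and po. They also include hH2A, NCU06660, tpm and ilv-2.

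Many of the abundant genes lay next to each other. A neighbour in the table's order that was itself one of the 150 was found for 21 of them (14%), against 3.52% of the 7367 genes. These made 11 adjacent pairs, of which 7 joined ribosomal proteins, and the median gap between the members of a pair was 253 bases. The pair crp-5 and ubi::crp-6 lay 319 bases apart on supercontig 7, with log2 ratios of -0.25 and -0.17. The pair NCU07829 (L7) and crp-2 (S14) lay 173 bases apart on supercontig 3, with ratios of -0.64 and -1.27, and un-16 (S9) and NCU01948 lay 237 bases apart on supercontig 1, with -0.64 and -0.61. Neighbours did not always go together: NCU06431 (S22) and NCU06432 (S12), 253 bases apart on supercontig 3, had ratios of 0.47 and -0.72. The histone genes hH3 and hH4-1, 1916 bases apart on supercontig 2, had ratios of -0.73 and -0.02.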

How the data were processed

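Polyadenylated RNA of hyphae from a upf1 knockout strain and a wild-type strain was sequenced, with 1 library of 3 pooled flasks per strain. Per the file headers, the deposited table holds read counts and RPKM values of each gene in both libraries. The submitters' processing notes name Bowtie 0.12.2. Genome build, annotation version, counting rule, strand use and handling of multiply matching reads were not given in the sources used here. Coordinates are those of the deposited table. Columns were assigned by the initials of the sample titles that begin their names.

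Library totals, recovered by dividing the deposited counts by RPKM and gene model length, were 59645570 for the knockout and 29546475 for the wild type, of which the table holds 94.4% and 95.4%. On a gene model of 1 kilobase, a count of 3 corresponds to 0.0503 RPKM at the knockout depth and 0.102 RPKM at the wild-type depth. Product names are the gene descriptions of the deposited table. Symbols and synonyms came from a RefSeq table (assembly NC12) and nothing else was taken from it. It matched 8930 of the 9454 genes and 146 of the 150. Each gene was placed in 1 functional group, the first match in an ordered list of symbol and name patterns written by hand. Vitamin synthesis was split from other metabolism after the data were seen.

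The ratio was taken on log2 with a pseudocount of 1 RPKM. Genes that reached 5 RPKM in either library formed the background. Printed folds divide the reads by the library totals, and their exact Clopper-Pearson 95% intervals cover counting error only, since reads lacking molecular identifiers can be copies of 1 molecule. With 1 library per strain no test was made. The ratio and interval code was tested on simulated data.

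The genes named are upf1, the 25 most abundant members, the 10 highest and 10 lowest ratios, the 3 most abundant of each group, the 3 genes on each side of the threshold, and the 10 first genes of the knockout list that are not members. Others were named after their values were seen. The 150 genes, the groups and the marker lists were chosen with earlier results of these data known. Python 3.11.15, pandas 2.3.3, scipy 1.17.1 and matplotlib 3.10.9 were used, and TMM factors came from edgeR 4.0.16 in R 4.3.3. Alternatives were other pseudocounts, scalings, thresholds and member rules.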

Additional observations from a re-analysis of the deposited data

How the results depend on the processing

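With 2 genes at least 2-fold higher and 30 at least 2-fold lower among the 150, the count of higher genes was 1 with TMM scaling and 1 with gene length bins centred, where nmt-1 fell short of 2-fold. It was 7 at a 1.5-fold threshold, 5 for the 150 largest geometric means and 16 for the 150 largest knockout RPKM. The count of lower genes was 63 with length bins centred, 71 at 1.5-fold, 18 for the 100 most abundant genes, 19 for geometric means and 9 for the 150 largest knockout RPKM. The share of reads in the 150 genes, 32.2% in knockout hyphae and 36.7% in wild-type hyphae, was 38.1% and 45.8% of summed RPKM, 30.4% and 35.0% of the library totals, and 32.5% and 37.8% for the 150 largest read counts. The alternatives that use geometric means, knockout RPKM or totals without the thiamine genes were chosen after seeing the data. Causes were not tested beyond what each alternative is built from. Of the 114 genes shared by both first 150, the number was 110 to 130 under other rules for a list of 150, 79 for a list of 100 and 148 for a list of 200. Of 81 genes named by rule, 25 were past 2-fold; 23 of these were past it under all 7 other pseudocounts and scalings, nmt-1 and NCU01219 were not, and none of the 25 changed sign. Another 17 passed 2-fold under at least 1 of them, and 9 that were short of 2-fold changed sign. The group medians of respiration, redox and cytoskeleton genes changed sign under at least 1 scaling, and the others did not. No paired analysis was possible because each strain has 1 library. Depth limits little here, since the least read member had 1340 reads in the knockout library and the least read member of the wild type had 7764.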

Other observations

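The strand column of the deposited table was uneven. It marked 25.8% of the 9454 genes as plus, 75 of the 150 most abundant genes as plus, 46.8% of the genes in wild-type ranks 1 to 1000 and 9.93% of those in ranks 7955 to 9454. No result above rests on it; by this column 9 of the 11 adjacent pairs of abundant genes would be transcribed away from each other. Of the 9 genes of the mitochondrial genome that reached 5 RPKM in either library, 8 were at least 2-fold lower in the knockout library, at low levels in libraries of polyadenylated RNA.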
